A study of Mus musculus with 18 samples.

Results

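The 6 genes Gata3, Tcf7, Lef1, Bcl11b, Ikzf1 and Runx1 encode transcription factors that build and hold the T cell lineage. They were examined by fixed windows of the mouse genome (build mm9) around each gene, and every listed region that shared bases with a window was taken. The windows held 84 of the 60531 listed regions of the series, namely 51 H3K4me3 regions, 13 H3K9ac regions, 7 H3K27me3 regions and 13 Notch1 peaks. All 6 windows held H3K4me3 regions, while H3K27me3 regions lay only in the windows of Gata3 and Lef1, and the Tcf7 window held 0 Notch1 peaks. The Notch1 list held 0.571 peaks per 100 kb over its span, so 0 in a window of 52 kb says little.

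The series compared CD4+ CD8+ double-positive (DP) cells of the normal mouse thymus with T cell acute lymphoblastic leukaemia (T-ALL), tumours that over-express Notch1-IC, the intracellular and active form of Notch1. Chromatin immunoprecipitation with sequencing was made for H3K27me3, H3K4me3 and H3K9ac from 2 libraries of each cell type, beside inputs treated with micrococcal nuclease, and for Notch1 from 1 T-ALL library beside 1 sonicated input. Strain, age, the promoter behind the Notch1-IC allele, the number of animals and whether the 2 libraries of a group came from separate mice are not stated by the labels. Without that, and with no value per library in the lists, no spread between replicates and no test between cell types could be had, and the depth behind each region is unknown. The lists name regions of difference and carry no expression values, so the cell types could not be checked against marker genes.

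In the thymus, Notch1 signalling starts the T cell programme by turning the DNA-binding protein RBPJ from a repressor into an activator. TCF-1, the product of Tcf7, and GATA3 are among the first factors of that programme, and BCL11B closes the other lineages. LEF1, Ikaros (Ikzf1) and RUNX1 act with them through the DP stage, and lesions in several of these genes occur in T-ALL. H3K4me3 and H3K9ac sit on chromatin of active genes, above all at their promoters, and H3K27me3 is set by the Polycomb group and goes with silencing.

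Each histone list shows a region in green or in red. The headers name the contrast (NIC against DP) but not the meaning of a colour, so that neither gain nor loss in T-ALL can be read from it, and the colours are reported as they stand. The H3K9ac list holds regions on 11 chromosomes. Chromosome 12, which carries Bcl11b, is not among them, so that Bcl11b was not analysed here for this mark, and the other 5 windows, 594 kb in all, were. Positions are mm9, counted from 1. The RefSeq gene table used here belongs to GRCm38.p6, so no region was placed in a promoter, exon, intron or UTR. From that table come only the direction of transcription and the neighbours. The RefSeq annotation of Tcf7 overlaps that of Skp1, and that of Gata3 overlaps the long noncoding RNAs 4930412O13Rik and 9230102O04Rik. Ikzf1 overlaps the long noncoding RNA Gm11999 and Runx1 overlaps Gm30281, so a region in these 4 windows need not belong to the named gene. Lef1 overlaps no other gene, but Gm36603 and Hadh lie within 10 kb of it, so the same limit holds for its window.

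H3K4me3 regions in the windows were mostly green. Green made up 36 of 51 and red the other 15, which is 70.6% green (95% Clopper-Pearson interval 56.2 to 82.5), beside 47.9% in the whole list. The interval covers counting error only, and abutting regions are not independent. The windows differed in this share. All 8 H3K4me3 regions at Gata3 were green, as were 9 of 10 at Ikzf1 and 5 of 6 at Runx1. At Bcl11b 6 of 10 were green, at Lef1 4 of 8 and at Tcf7 4 of 9. By count, red thus equalled green at Lef1 and exceeded it at Tcf7. By bases, green covered more, 6000 bp beside 2200 bp of red at Lef1 and 3850 bp beside 2975 bp at Tcf7. The counts also moved with the setting. With regions narrower than their list's median left out, Lef1 and Tcf7 each held 3 green and 2 red. Merging within 1 kb gave 3 green and 2 red at Lef1, but 2 green and 3 red at Tcf7. Narrowing by 10 kb at each end left 2 green and 4 red at Lef1, and 3 green and 5 red at Tcf7. The intervals of single windows are wide and overlap, for example 63.1 to 100% at Gata3 and 13.7 to 78.8% at Tcf7. Merging regions of 1 colour within 1 kb of each other left 18 green and 8 red regions.

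**Figure D1:**
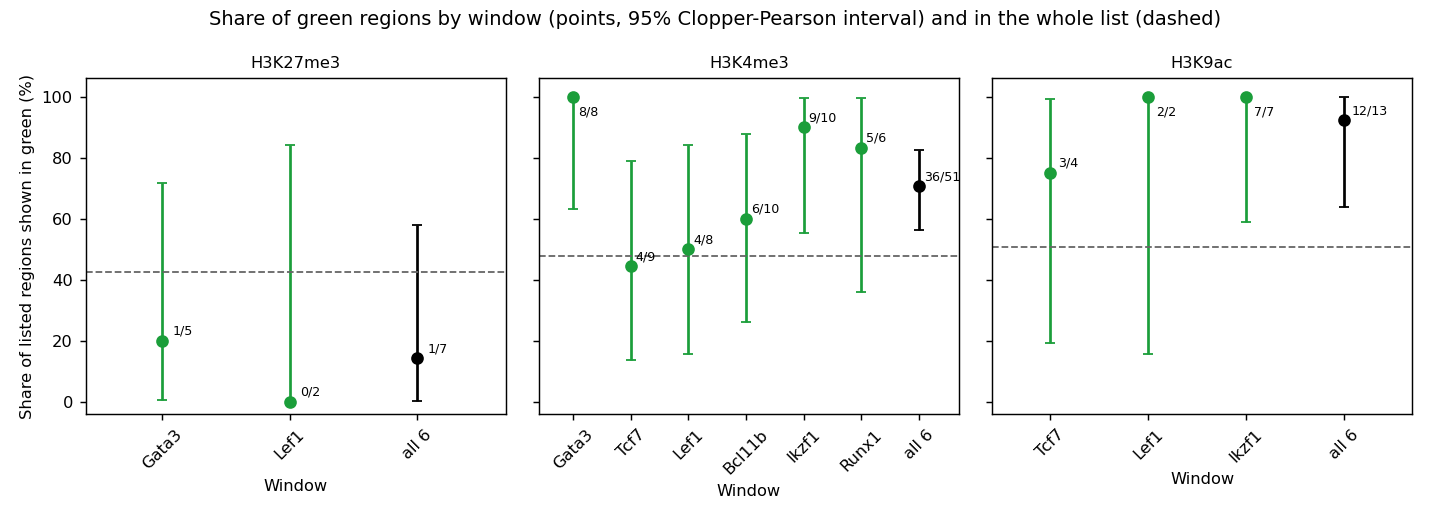
Share of listed regions shown in green (%, vertical axis) in each window and in all 6 windows (horizontal axis), for H3K27me3, H3K4me3 and H3K9ac; bars are 95% Clopper-Pearson intervals, labels give green over all regions, and the dashed line is the share in the whole list. For H3K4me3 the points run from 44.4% at Tcf7 to 100% at Gata3, and the whole list lies at 47.9%.

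The widths of green and red H3K4me3 regions overlapped, and the green ones had the larger median. The 15 red regions in the windows were 250 to 825 bp wide, with a median of 550 bp, and the 36 green regions were 500 to 4425 bp wide, with a median of 1025 bp. In the whole list the medians were 625 bp for red and 700 bp for green. Green regions covered 46.2 kb of the windows and red regions 8.50 kb. The density of listed regions was 5.08 green and 2.12 red H3K4me3 regions per 100 kb of window, beside 0.40 and 0.439 per 100 kb over the span of the list, which includes all ground between genes.

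H3K9ac regions were green with 1 exception, at Tcf7. Green made up 12 of 13 (92.3%, 64.0 to 99.8), beside 50.7% in the whole list. This interval too covers counting error only, and the regions are not independent: 5 green ones formed 1 cluster of 8.3 kb at Ikzf1. Merging within 1 kb left 8 green and 1 red. Ikzf1 held 7 green regions, Lef1 2 green ones, and Tcf7 3 green ones and the red one. The windows of Gata3 and Runx1 lie on chromosomes of the list and held 0. Over its span the list held 0.0669 green and 0.0674 red regions per 100 kb, so 0 in windows of 50 and 250 kb says little. H3K27me3 regions were mostly red, 6 of 7, beside 57.4% red in the whole list. The green share was 14.3% (0.361 to 57.9), an interval that holds the 42.6% of the whole list. Of the 7 regions, 5 formed 1 cluster at Gata3, so they are not independent and the interval is no test. The windows of Tcf7, Bcl11b, Ikzf1 and Runx1 held 0 of either colour. Over its span the H3K27me3 list held 0.398 green and 0.511 red regions per 100 kb, so 0 in a single window says little.

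**Figure D2:**
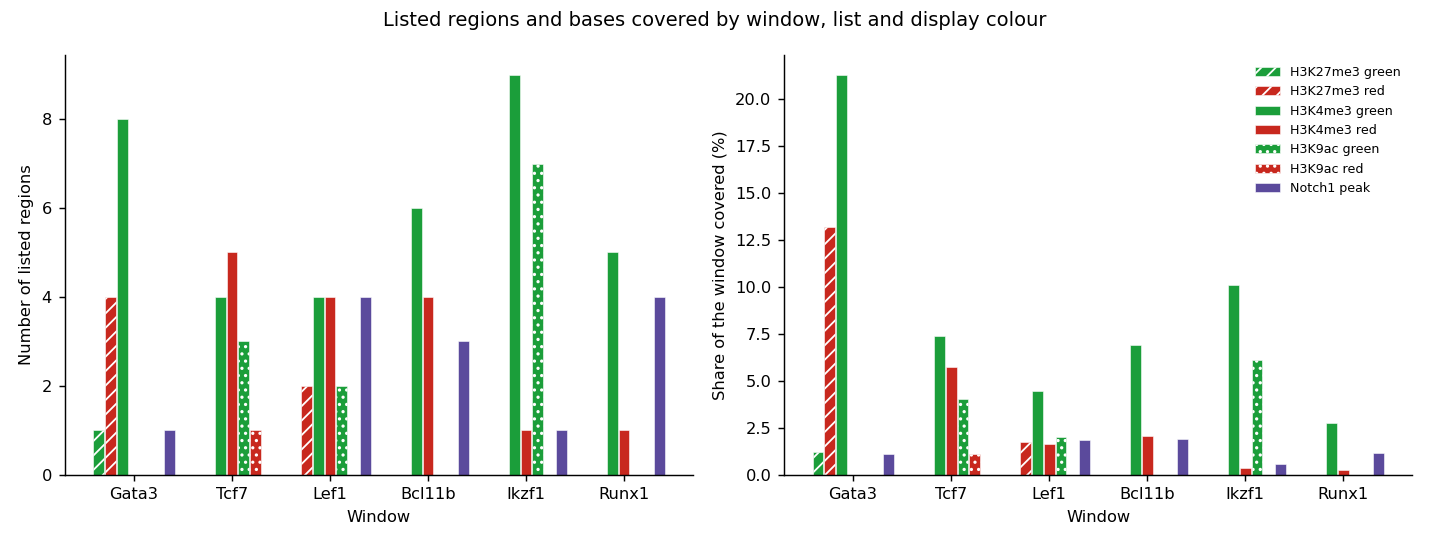
Number of listed regions (left) and share of the window's bases they cover in % (right) for each window (horizontal axis), by list and display colour, where hatching marks H3K27me3, dots mark H3K9ac and purple bars are Notch1 peaks. Green H3K4me3 covers 21.3% of the Gata3 window and 2.75% of the Runx1 window.

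Read along the direction of transcription, most histone regions lay in the 5′ part of their windows. All 13 H3K9ac regions, 44 of 51 H3K4me3 regions and 6 of 7 H3K27me3 regions had their middle in the first 50% of their window, while 5 of 13 Notch1 peaks did. The exceptions for H3K4me3 were 3 regions at Bcl11b, 3 at Runx1 and 1 at Lef1. Where the windows lie relative to each start site was not determined, so these are places in a window and not distances from a promoter.

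**Figure D3:**
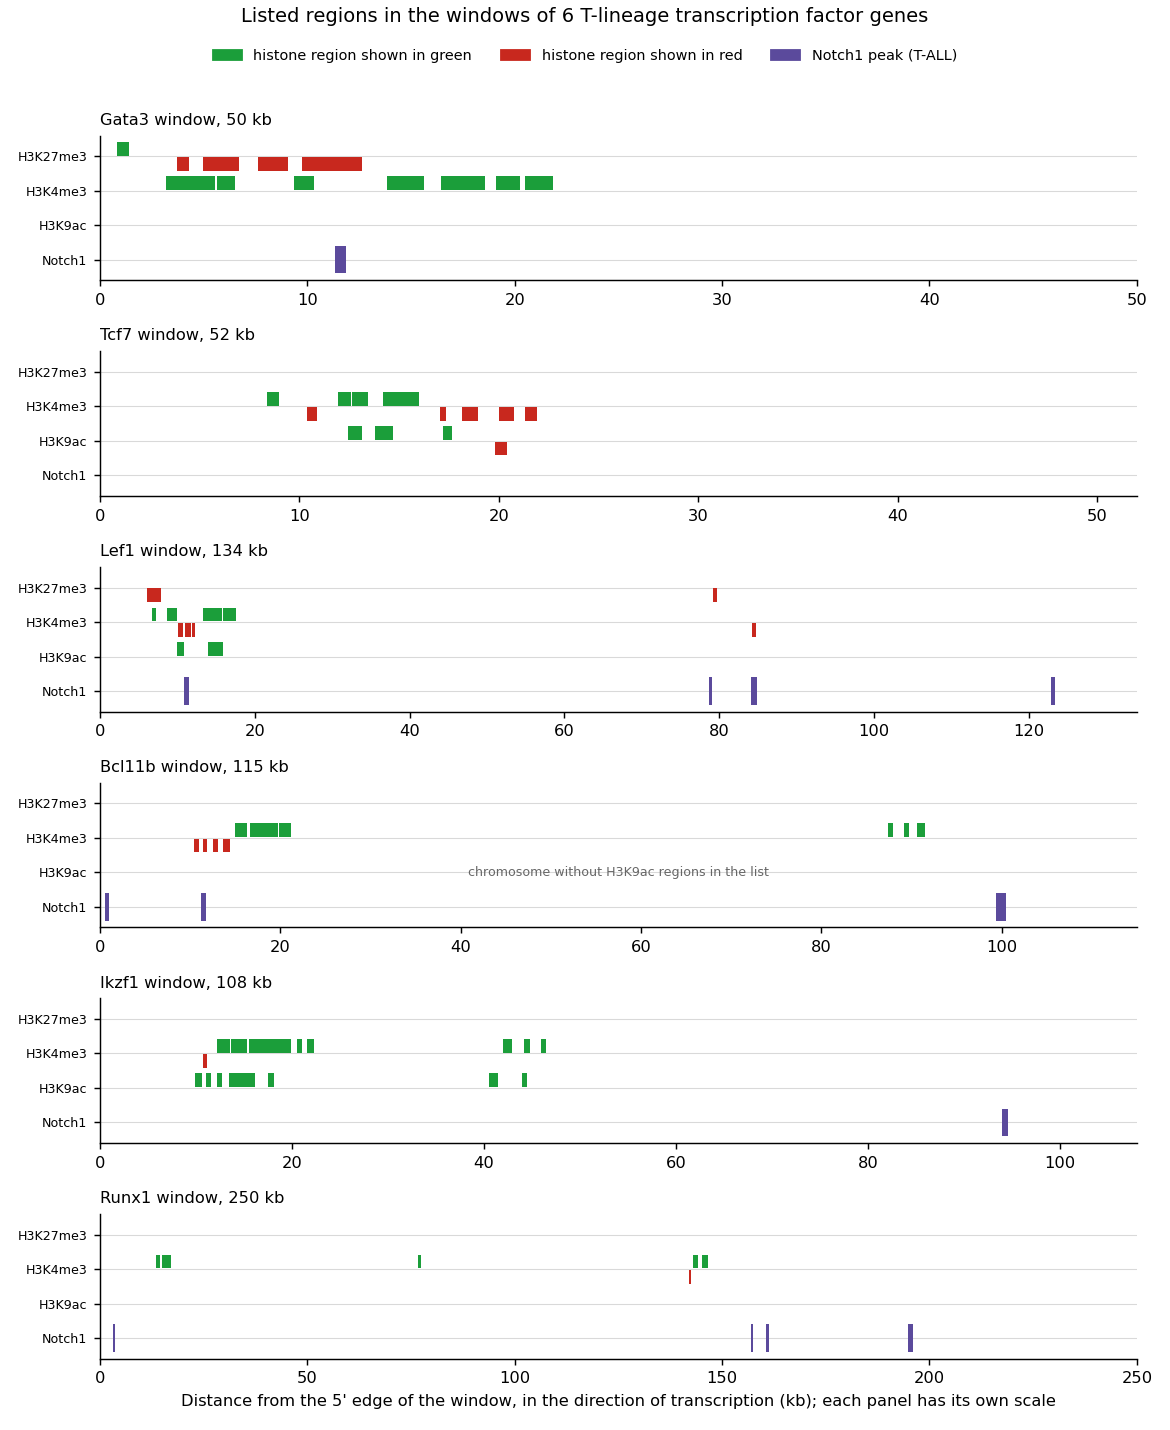
Every listed region in the 6 windows, placed by its distance in kb from the 5′ edge of the window in the direction of transcription (horizontal axis, a scale for each panel), with 1 row for each list, green regions above the line, red regions below it and Notch1 peaks in purple. Histone regions crowd into the first part of the windows, and Notch1 peaks of Runx1, Lef1, Bcl11b and Ikzf1 reach far into them.

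Tcf7 encodes TCF-1, an HMG-box factor that Notch1 induces in early progenitors and that opens T cell genes. Its window, on chromosome 11 from 52055001 to 52107000, held 9 H3K4me3 regions and 4 H3K9ac regions within 13.6 kb, 0 H3K27me3 regions and 0 Notch1 peaks. Tcf7 is transcribed towards lower positions, and in that direction the H3K4me3 colours alternated in 4 runs. First came 1 green region (52098051 to 52098625) and 1 red region (52096126 to 52096600). Then followed 3 green regions from 52091001 to 52095075, with the widest green one of 1800 bp, and 4 red regions from 52085076 to 52089975, with the widest red one of 825 bp (52088026 to 52088850). H3K9ac changed colour in the same direction, with 3 green regions from 52089326 to 52094575 and then the red one from 52086601 to 52087175.

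At Tcf7 both acetylated and methylated regions could be compared base by base. Green met green in 3 pairs that shared 1150 bp. The H3K9ac region from 52092301 to 52093200 met the H3K4me3 region from 52091001 to 52092800, and that from 52093876 to 52094575 met those from 52093551 to 52094350 and from 52094401 to 52095075. Red met red in 1 pair, where the red H3K9ac region shared 375 bp with the H3K4me3 region from 52086251 to 52086975. In 1 pair the colours differed: the green H3K9ac region from 52089326 to 52089825 shared 200 bp with the red H3K4me3 region from 52089626 to 52089975. That pair lies where the H3K4me3 colour turns from green to red.

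Lef1 encodes an HMG-box factor related to TCF-1 that acts in Wnt and β-catenin signalling. Its window, on chromosome 3 from 130803001 to 130937000, held regions of all 4 lists, the only window of the 6 to do so. It held 4 Notch1 peaks, as many as Runx1, and 7 of its 8 H3K4me3 regions lay in 10.8 kb from 130809726 to 130820550. In the direction of transcription, towards higher positions, this stretch ran from 2 green regions to 3 red ones (130813076 to 130815175) and back to 2 green ones (130816301 to 130820550). The widest was green, 2500 bp from 130816301 to 130818800.

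The first Notch1 peak of Lef1, from 130813826 to 130814475, lay among the 3 red H3K4me3 regions. It shared 450 bp with the middle one (130814026 to 130814775) and stood 75 bp from the first (130813076 to 130813750). That first red region lay wholly inside a green H3K9ac region from 130813001 to 130813800, so that over 675 bp the marks had opposite colours, and this H3K9ac region ended 25 bp before the peak. The other H3K9ac region, 1875 bp from 130817001 to 130818875, shared 1800 bp with the widest green H3K4me3 region and 50 bp with the next one, from 130818826 to 130820550. As wide a region or wider made up 0.840% of the green H3K9ac list.

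Farther into Lef1, a Notch1 peak from 130887176 to 130887950 contained a red H3K4me3 region from 130887226 to 130887750. Another, from 130881651 to 130882150, ended 75 bp before a red H3K27me3 region of 500 bp, from 130882226 to 130882725. The last, from 130925876 to 130926450, lay 38.1 kb from any listed histone region. At the 5′ side a red H3K27me3 region of 1850 bp (130809051 to 130810900) contained a green H3K4me3 region of 500 bp (130809726 to 130810225).

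RBPJ, the DNA-binding partner of Notch1, is known to bind GTGGGAA. Since the mm9 peaks could not be read as sequence, the RefSeq promoters (GRCm38.p6, 250 bases before to 50 after a start site) of the 6 genes were searched on both strands instead. These letters, or TTCCCAC on the other strand, occurred in 2 of 12 promoters, both of Lef1, and in 6.38% of all 32851 promoters in the table. The 2 Lef1 promoters overlap and hold the same site, at position 38 counted from the first start site and 12 from the second. It is shown in 30 bases, with the motif in capitals, because Lef1 is the only one of the genes whose promoters held it, and the 250 bases before the first start site follow it.
Lef1 site: cgcggcgaggagaagcgGTGGGAAggcgca
Lef1 (GRCm38.p6, chr3:131110047-131110296, plus strand): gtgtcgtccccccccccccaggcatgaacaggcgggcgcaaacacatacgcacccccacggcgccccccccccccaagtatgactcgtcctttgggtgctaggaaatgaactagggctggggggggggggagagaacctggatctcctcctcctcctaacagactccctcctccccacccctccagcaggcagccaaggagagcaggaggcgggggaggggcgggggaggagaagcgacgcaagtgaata
TGGGAA, the core that Ikaros also binds, lies within the RBPJ motif and so occurs at the same site. It was found in 3 of the 12 promoters, all of Lef1, and in 25.6% of all promoters. Whether the Notch1 peak of the mm9 window lies on this site was not determined.

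Gata3 encodes the zinc-finger factor that early T cells require and that later directs CD4 T cells. Its window, on chromosome 2 from 9765001 to 9815000, combined red H3K27me3 with green H3K4me3 over the same ground. The 4 red H3K27me3 regions were 2875 bp (9802376 to 9805250), 1475 bp (9805926 to 9807400), 1725 bp (9808301 to 9810025) and 550 bp wide (9810726 to 9811275). Together they covered 13.2% of the window. A single green H3K27me3 region of 600 bp, from 9813601 to 9814200, lay on the 5′ side of them.

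The 8 H3K4me3 regions of Gata3, all green, ran over 18.6 kb from 9793176 to 9811825 and covered 21.3% of the window. The widest were 2375 bp (9809451 to 9811825) and 2125 bp (9796426 to 9798550). The 3 on the 5′ side (9804676 to 9805625, 9808476 to 9809375 and the widest) met red H3K27me3 regions in 4 pairs and shared 2600 bp with them. The other 5 met none. The single Notch1 peak, from 9803126 to 9803675, lay wholly inside the widest red H3K27me3 region. It stood 1000 bp from the nearest H3K4me3 region.

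With Lef1 counted too, 4 of the 6 red H3K27me3 regions in the windows shared bases with a green H3K4me3 region, beside 1.45% of all red H3K27me3 regions. None of the 6 shared bases with a red H3K4me3 region, beside 11.4% of all. Of the 4, 3 belong to 1 cluster at Gata3, and no test was made of so few. The Gata3 cluster lies near the edge of its window: with each window narrowed by 10 kb at both ends, 2 red H3K27me3 regions were left, of which 1 met green H3K4me3. Widened by 10 kb at both ends, the windows held 9 red H3K27me3 regions, 7 of them at Gata3, and still 4 met green H3K4me3. In the unchanged windows, with 50% of a red region required to be covered, 2 of the 6 met green H3K4me3.

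The Gata3 promoter in RefSeq is shown because both marks differed on the 5′ side of its window. In its 250 bases before the start site, 70.0% were G or C, and it held none of the motifs searched.
Gata3 (GRCm38.p6, chr2:9878601-9878850, minus strand): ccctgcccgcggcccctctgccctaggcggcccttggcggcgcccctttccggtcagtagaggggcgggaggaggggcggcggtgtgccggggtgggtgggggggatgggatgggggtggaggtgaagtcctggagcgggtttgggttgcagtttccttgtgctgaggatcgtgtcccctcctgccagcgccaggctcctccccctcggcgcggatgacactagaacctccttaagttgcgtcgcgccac

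Bcl11b encodes a zinc-finger factor whose onset seals T cell commitment. Its window, on chromosome 12 from 109140001 to 109255000, held 10 H3K4me3 regions, 3 Notch1 peaks and 0 H3K27me3 regions. In the direction of transcription, towards lower positions, 4 red regions (109240601 to 109244575) were followed by 6 green ones, so the colour turned once. Of the green ones, 3 adjoined the red run and the other 3 stood far downstream, from 109163501 to 109167625. The red regions were 500 to 800 bp wide, the widest from 109240601 to 109241400. The widest green one was 3100 bp, from 109235251 to 109238350, and 0.410% of green H3K4me3 regions were as wide or wider.

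The Notch1 peak from 109243251 to 109243750 shared 350 bp with the third red region when counted upward in position, from 109243101 to 109243600. A second peak, from 109254001 to 109254500, lay 9.4 kb from the nearest listed histone region. The widest Notch1 peak of all 6 windows, 1200 bp from 109154476 to 109155675, lay 7.8 kb from the downstream green H3K4me3 regions, and 2.85% of all Notch1 peaks were as wide or wider.

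The Bcl11b promoter held CTTTGAA, the letters bound by TCF-1 and LEF1, at position -89 from the start site. Searched on both strands (TTCAAAG), this motif occurred in 1 of the 12 promoters and in 5.14% of all. It is in capitals below, and the match is a description of the letters, not of binding.
Bcl11b (GRCm38.p6, chr12:108003415-108003664, minus strand): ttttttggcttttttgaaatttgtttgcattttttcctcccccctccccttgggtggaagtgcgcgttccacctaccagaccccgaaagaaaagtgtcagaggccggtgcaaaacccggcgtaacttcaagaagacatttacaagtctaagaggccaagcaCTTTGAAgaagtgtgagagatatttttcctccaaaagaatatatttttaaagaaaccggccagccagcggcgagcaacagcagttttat

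Ikzf1 encodes Ikaros, a zinc-finger factor that restrains Notch target genes and acts as a tumour suppressor in mouse T-ALL. Its window, on chromosome 11 from 11575001 to 11683000, held the widest H3K4me3 region and the widest H3K9ac region of the 6 windows, both green. In the direction of transcription, towards higher positions, 1 red H3K4me3 region of 375 bp (11585726 to 11586100) was followed by 9 green ones. A cluster of 7 regions, the red one included, spanned 11.6 kb to 11597325, and 3 green regions formed another from 11616951 to 11621425. The widest, 4425 bp from 11590476 to 11594900, had 0.156% of green H3K4me3 regions at its width or above.

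All 7 H3K9ac regions of Ikzf1 were green. The widest, 2625 bp from 11588476 to 11591100, shared bases with 4 green H3K4me3 regions, and 4 regions of the green H3K9ac list were as wide or wider, itself included. The 4 H3K4me3 regions met by this H3K9ac region were the widest one and those from 11587201 to 11588550, from 11588651 to 11589700 and from 11589701 to 11590325. Green met green in 7 pairs that shared 3875 bp. The other pairs were made by the H3K9ac regions of 600 bp (11587151 to 11587750), 675 bp (11592476 to 11593150) and 500 bp (11618926 to 11619425), the last with the H3K4me3 region from 11619151 to 11619750. The red H3K4me3 region touched a green H3K9ac region (11586076 to 11586575) by 25 bp, the step of the lists. The first H3K9ac region (11584851 to 11585600) and the one from 11615501 to 11616425 met no H3K4me3 region. The only Notch1 peak, 625 bp from 11668976 to 11669600, lay 47.5 kb from the nearest listed histone region.

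Over the windows of Tcf7, Lef1 and Ikzf1, 7 of the 12 H3K9ac regions in green met a green H3K4me3 region and 3 met a red one. In the whole list these shares were 48.5% and 30.5%. The bases shared were 6875 for green with green, and 900 for green H3K9ac with red H3K4me3. Counted by H3K9ac region, the members were thus near the whole list. Counted by H3K4me3 region, on chromosomes of the H3K9ac list, they were not. There 10 of 30 green H3K4me3 regions met green H3K9ac, beside 7.19% of all green ones, and 3 of 11 red ones did, beside 4.17%. Green H3K9ac regions were also denser in the windows, 2.02 per 100 kb beside 0.0669 over the span of the list. What underlies the higher shares was not tested.

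The Ikzf1 promoter listed first in RefSeq was the most GC-rich of the 12, at 82.0% over 250 bases, beside a median of 52.4% in all promoters. It held none of the motifs searched.
Ikzf1 (GRCm38.p6, chr11:11685675-11685924, plus strand): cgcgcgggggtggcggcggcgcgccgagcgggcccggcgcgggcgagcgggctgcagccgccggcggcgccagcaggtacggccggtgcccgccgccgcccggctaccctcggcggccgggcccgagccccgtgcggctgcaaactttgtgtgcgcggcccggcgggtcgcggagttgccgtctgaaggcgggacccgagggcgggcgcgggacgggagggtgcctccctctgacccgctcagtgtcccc

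Runx1 encodes the DNA-binding subunit of core binding factor and is transcribed from a distal and a proximal promoter. Its window, the longest, on chromosome 16 from 92590001 to 92840000, had the fewest H3K4me3 regions for its length, 2.00 green and 0.40 red per 100 kb. They fell into 3 groups along the direction of transcription, towards lower positions. Near the 5′ edge lay 2 green regions, 1000 bp (92825576 to 92826575) and 2250 bp wide (92822901 to 92825150). A single green region of 800 bp followed from 92762551 to 92763350. The third group, from 92693401 to 92698025, held 1 red region of 600 bp (92697426 to 92698025) and then 2 green ones of 1325 and 1500 bp.

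No region of the Runx1 window shared bases with another list. Only H3K4me3 regions and Notch1 peaks were there to meet, and in the whole list 32.9% of peaks met a histone region. The 4 Notch1 peaks of Runx1 lay 9.9 to 48.3 kb from the nearest listed histone region, which was green H3K4me3 in each case. The first, from 92836451 to 92836950, stood on the 5′ side of all H3K4me3 regions. The other peaks, from 92682451 to 92683100, from 92678776 to 92679475 and from 92644051 to 92645125, stood on the 3′ side of them.

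RefSeq gives 2 Runx1 promoters of unlike make-up: the first listed had 45.6% G or C over 250 bases and 2 CpG, the second 67.6% and 27 CpG. The motif bound by RUNX proteins, TGTGGTT or AACCACA on the other strand, occurred 2 times in the first, at positions 28 and 36 after the start site, and in 5.27% of all promoters. It was found in 1 of the 12 promoters. This match, too, is a description of the letters, not of binding. The 30 bases that hold both copies are shown with the motif in capitals, followed by the 250 bases before the start site.
Runx1 site: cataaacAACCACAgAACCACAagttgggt
Runx1 (GRCm38.p6, chr16:92826075-92826324, minus strand): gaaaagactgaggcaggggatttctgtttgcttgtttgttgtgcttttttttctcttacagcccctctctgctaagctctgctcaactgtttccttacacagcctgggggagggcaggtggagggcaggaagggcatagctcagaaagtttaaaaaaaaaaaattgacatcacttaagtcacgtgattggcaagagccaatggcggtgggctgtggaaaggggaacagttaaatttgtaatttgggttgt

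**Figure D4:**
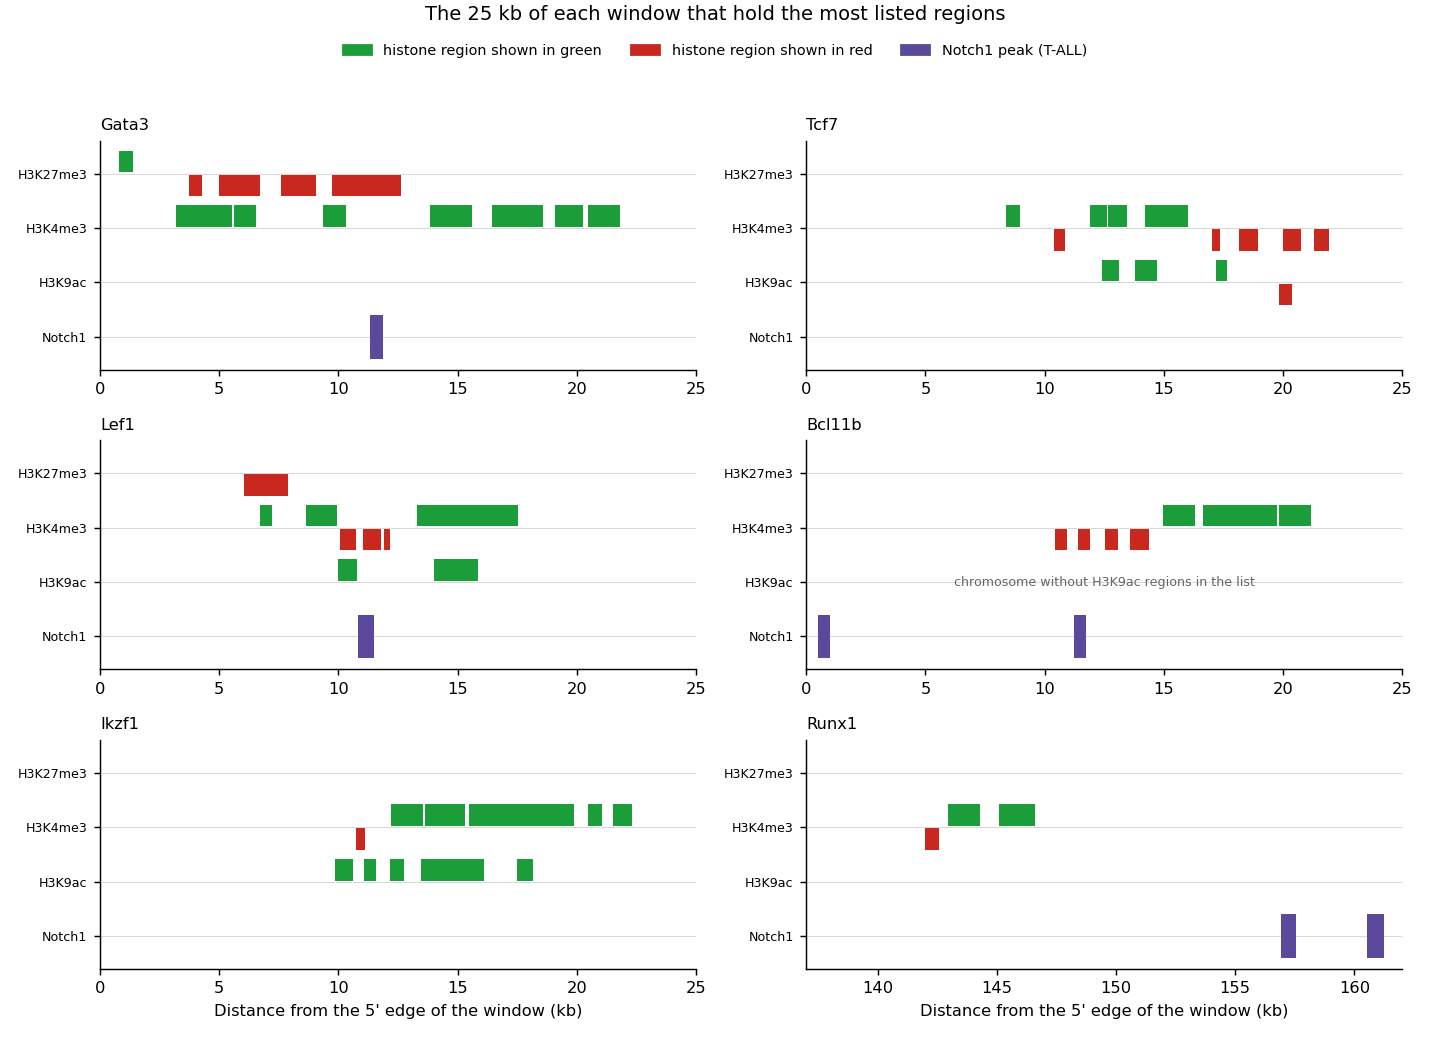
The 25 kb of each window that hold the most listed regions, by distance in kb from the 5′ edge of the window (horizontal axis), with the rows and colours of the map of whole windows. Red H3K27me3 lies over green H3K4me3 at Gata3, the H3K4me3 colour alternates at Tcf7 and Lef1 and turns once at Bcl11b, and 1 Notch1 peak at Lef1 and 1 of the 2 shown at Bcl11b fall among red H3K4me3 regions.

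Across the windows, Notch1 peaks touched histone regions of 1 colour. Of 13 peaks, 3 shared bases with a red H3K4me3 region (2 at Lef1 and 1 at Bcl11b), beside 13.3% of all peaks, and 1 at Gata3 with a red H3K27me3 region, beside 22.6%. None shared bases with a green region of any mark, where for H3K9ac only 10 peaks lay on chromosomes of that list. In the whole list such meetings were rare too, with 0.673% of peaks in green H3K4me3 and 0.700% in green H3K27me3. On chromosomes of the H3K9ac list, 0.199% of peaks met green H3K9ac. In all, 4 of 13 peaks met a listed histone region, and 32.9% of all peaks did, so the members were near the background. The median distance to the nearest histone region was 9.4 kb for the 13 peaks and 3.5 kb for all 14569. Peaks numbered 1.83 per 100 kb of window, beside 0.571 over the span of the list. Of the 13, 4 were at or above the median width of the Notch1 list, 675 bp, and none of the 4 shared bases with a histone region that was at or above the median width of its own list.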

How the data were processed

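The series holds 18 libraries, and 4 region lists of the whole series were used. The submitters' processing notes name BWA, a read aligner, and the builds NCBIM37 and mm9; for the caller, its thresholds, the use of inputs and the joining of replicates, no source used here gives anything. In all rows the deposited BED score is 1000, and it was not used, and the authors' lists hold starts and widths in steps of 25 bp, with no count, fold or significance value, so depth and precision per library are unknown. Members and gene lists were chosen with earlier results of these data known. The windows were read from the rule in mm9, and regions sharing 1 bp or more were kept. By a fixed rule, the text names every Notch1 peak, every H3K9ac region, each histone region that shared bases with another list and the widest of each mark and colour (at most the widest 6 per window of a kind, exceeded at Ikzf1, where all 7 H3K9ac regions are given); others are given by count and range. Clusters join regions of 1 mark within 5 kb. Overlaps count 1 bp or more. Shares carry 95% Clopper-Pearson intervals (scipy 1.17.1, Python 3.11.15). The overlap code was checked on simulated intervals. No test was made. The planned count of other T cell factors needs a gene annotation on mm9 and was not made. The RBPJ motif was planned, and the other motifs were added after the data were seen; GATA letters (AGATAA or TTATCT) were found in 1 of 12 member promoters, at Lef1, and in 11.2% of all. All 6 genes matched the RefSeq promoter table, with 12 promoters. Where a gene had several, the first listed was printed, and only for genes whose windows hold a Notch1 peak.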

Additional observations from a re-analysis of the deposited data

How the results depend on the processing

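No paired analysis was possible because the values of single libraries are not in the lists, which also kept replicates from being left out in turn. Alternatives were narrower and wider windows, only regions no narrower than their list's median, merging within 1 kb and, for overlaps, 50% of the first region covered. Counts within 1.5 times were taken as unmoved. Narrowing by 10 kb at each end left 0 green H3K27me3 regions (0 bp), 2 red ones (3125 bp) and 1 red H3K27me3 region meeting green H3K4me3. Widening by 10 kb gave 2 red H3K9ac regions (1125 bp), and 2 red H3K4me3 regions met red H3K9ac. At or above the median width there were 0 green H3K27me3 regions (0 bp), 5 red H3K4me3 regions (3775 bp), 0 red H3K9ac regions (0 bp) and 4 Notch1 peaks (3750 bp), by construction. Histone regions below their own list's median were left out too, among them the red H3K4me3 region of 525 bp inside a Lef1 peak. Among what was left, 0 of these peaks met red H3K27me3 and 0 met red H3K4me3. There 2 red H3K27me3 regions met green H3K4me3, 1 red H3K4me3 region met green H3K9ac and 0 met red H3K9ac. Merging left 3 red H3K27me3, 18 green and 8 red H3K4me3 regions. Red H3K27me3 regions meeting green H3K4me3 then fell from 4 to 2, and green H3K4me3 regions meeting green H3K9ac from 10 to 4. With 50% covered these 2 overlap counts were 2 and 4. The unknown meaning of the colours and the unknown depth limit every count.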
